A study of Caenorhabditis elegans with 23 samples.

Results

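The germline of Caenorhabditis elegans uses Argonaute proteins, which carry small RNAs to matching transcripts, and 8 of the genes that encode them were followed here: prg-1, csr-1, hrde-1, wago-1, wago-4, ergo-1, alg-3 and alg-4. They were chosen by name, not by their values, although earlier results of these data were known. They are 8 of the 46904 genes in each of 2 count tables, one of mRNA and one of small RNA. All 8 had counts enough to be tested in both tables. The worms came from 4 groups. N2 is the reference laboratory strain, MY16 is a wild isolate, and N2_Star and MY16_Star carry a word that the labels do not explain; the title of the series names the passing of small RNAs between generations without the nucleus. All were whole adults on the first day of adulthood, fed E. coli OP-50, and the design text calls the replicates biological without saying how they were kept apart, so p-values measure the spread between these libraries. There were 3 libraries per group and assay, except 2 for N2_Star small RNA. The design text names MY16_Star as the group with a failed small RNA library, whereas the sample list, followed here, holds 3 of MY16_Star and 2 of N2_Star. MY16 is 1 isolate, its reads were aligned to the genome of N2, and a site that differs in MY16 can lose reads at the same RNA level.

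As background, PRG-1 is the PIWI protein that binds piRNAs, short RNAs encoded in the genome that scan germline transcripts for foreign sequence. Transcripts recognised by PRG-1, or by the primary Argonautes ERGO-1, ALG-3 and ALG-4, become templates for RNA-dependent RNA polymerases, which make secondary small RNAs antisense to them. Secondary small RNAs are bound by WAGO-1 and WAGO-4 in the cytoplasm and germ granules and by HRDE-1 in the nucleus, where they silence genes over generations. CSR-1 binds antisense small RNAs of genes that the germline expresses and is needed for fertility. ERGO-1 acts in oocytes and embryos, and ALG-3 and ALG-4, a pair of close relatives, act while sperm are made. The small RNA table is marked AS, which no label defines and which is read here as antisense. On that reading it measures small RNAs that could target an Argonaute transcript, not those that the Argonaute protein carries.

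Depth, as counts on genes, was 9362590 to 23150198 in the mRNA libraries and 1778321 to 19563562 in those of small RNA. Levels are in CPM, counts scaled to a common library total with TMM factors. A floor of 3 counts stood at 0.127 to 0.31 CPM in mRNA and at 0.134 to 1.95 CPM in small RNA. The shallowest small RNA libraries were N2 replicate 3 with 1778321 and MY16 replicate 1 with 1961627 counts. Intervals of shares and floors cover counting error only, because no molecular identifiers were counted. The whole-worm label was checked on marker genes, and summed mRNA per library was 2633 to 6272 CPM for 8 germline genes, 2976 to 9049 CPM for 8 oocyte genes, 63.7 to 140.3 CPM for 12 sperm genes and 1083 to 2184 CPM for 10 somatic genes. Every marker had counts in every mRNA library, except for spe-42, a gene of sperm function, which was at 0 in 1 MY16_Star library. One mRNA library stood apart. In N2_Star replicate 1 the cuticle collagen genes dpy-7 and sqt-3, which are used most in larvae, were at 42.2 and 242 CPM, against at most 3.16 and 39.7 CPM in the other libraries, and its germline and oocyte sums were the lowest of all. Values of the contrasts with N2_Star mRNA are also given without this library.

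Positions are 1-based in WBcel235, the assembly that ce11 names. The PIWI gene prg-1 (WBGene00004178) lies on chromosome I at 7585329 to 7588367, and wago-1 (WBGene00011061) on the same chromosome at 7235384 to 7238792. The gene csr-1 (WBGene00017641) lies on chromosome IV at 7957267 to 7962157, hrde-1 (WBGene00007624) on III at 4172337 to 4176159 and wago-4 (WBGene00010263) on II at 12919551 to 12923377. The gene ergo-1 (WBGene00019971) lies on V at 1008803 to 1018352, alg-3 (WBGene00011910) on IV at 11704246 to 11708264 and alg-4 (WBGene00006449) on III at 9887210 to 9891424. The span of csr-1 shares 4354 bases with frpr-10, a gene that had at most 6 counts in any library of either assay. The spans of prg-1 and ergo-1 share 12 and 17 bases with the neighbours D2030.12 and pei-2, and the other 5 spans overlap no annotated gene.

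The 6 genes other than alg-3 and alg-4 were among the more abundant transcripts of the adult. In N2, wago-1 mRNA was at 887 ± 81.3 CPM (SD, n = 3), at percentile 98.7 of the 9864 genes tested in both assays, whereas alg-3 was at 15.3 ± 2.86 CPM, at percentile 39.2. Per kilobase of gene span, introns included, the mRNA order in N2 was wago-1 (260.3 ± 23.9 CPM per kilobase), hrde-1 (168 ± 11.1), prg-1 (117 ± 6.11), csr-1 (96.9 ± 11.1), wago-4 (44.0 ± 4.60), ergo-1 (31.6 ± 2.11), alg-4 (3.91 ± 0.605) and alg-3 (3.80 ± 0.713; SD, n = 3 for each). The libraries of neighbours in this order did not overlap, except those of alg-4 and alg-3. The first 6 places were the same in all 4 groups. The libraries of prg-1 and csr-1 overlapped in N2_Star, MY16 and MY16_Star, so their order there was within the spread. In N2_Star wago-1 also overlapped hrde-1, and hrde-1 overlapped prg-1; replicate 1 was the lowest library for each. A gene with long introns is placed lower on this scale, which bears most on ergo-1 with its span of 9550 bases.

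**Figure D1:**
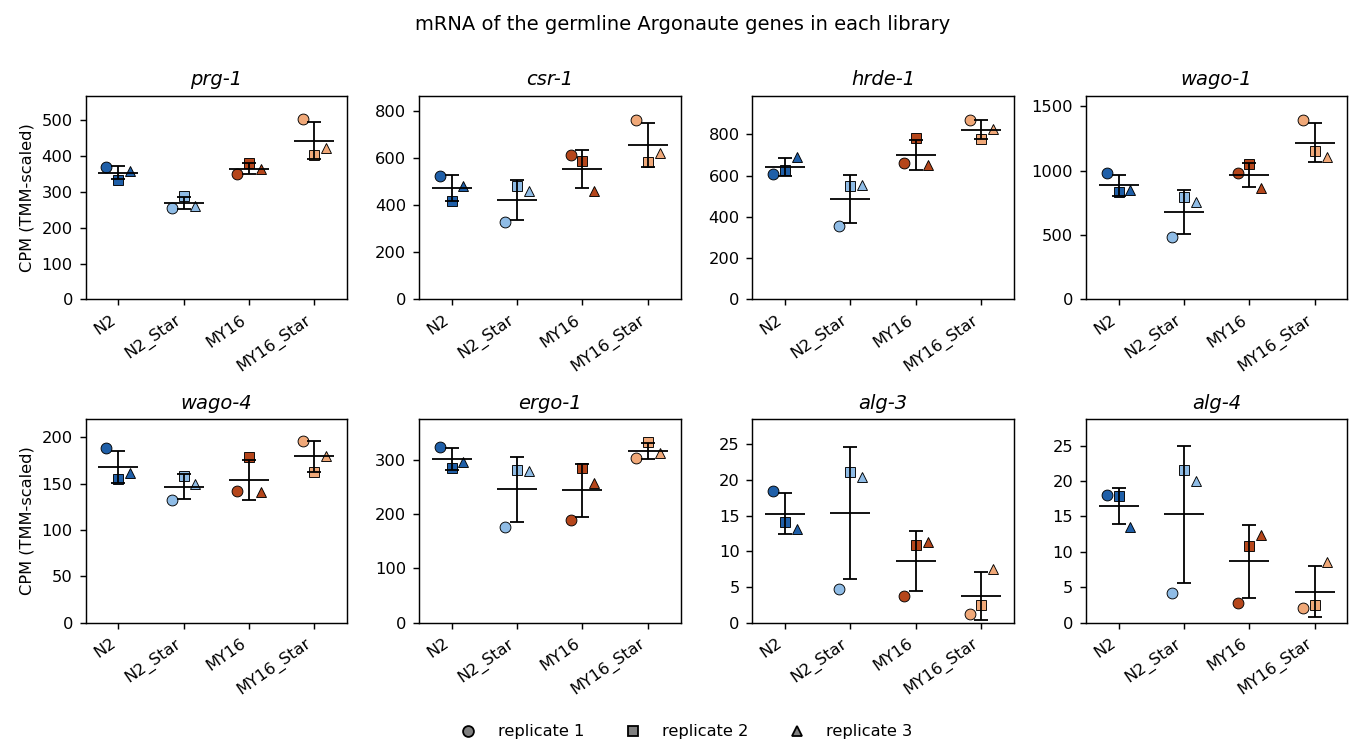
mRNA of each gene (vertical axis, CPM scaled by TMM, starting at 0) in the 3 libraries of each group; symbols mark replicate numbers, long bars the mean and whiskers 1 SD. For prg-1 the 3 N2_Star libraries sit between 257 and 289.9 CPM, below all N2, MY16 and MY16_Star libraries, and for alg-3 and alg-4 the spread within a group is wide.

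The first comparison asked how the 2 isolates differ. None of the 8 genes passed in mRNA between MY16 and N2 with edgeR at an adjusted p of 0.05 and none passed with DESeq2, where 4.03% of all genes tested passed with edgeR. None of the 8 had an unadjusted edgeR p under 0.05, whereas 12.9% of all genes did. The log2 fold changes of MY16 over N2 ran from -0.94 for alg-4 to 0.23 for csr-1, with a median of -0.04 over the 8 genes and of -0.02 over all genes. The PIWI gene prg-1 had the narrowest interval, a log2 fold change of 0.04 with an approximate 95% interval from -0.19 to 0.28. For wago-4 the interval ran from -0.40 to 0.15. The primary Argonaute genes ergo-1, alg-3 and alg-4 had all 3 MY16 libraries below all 3 N2 libraries, with edgeR adjusted p of 0.600, 0.746 and 0.699. For alg-3 the libraries stood at 3.81, 10.9 and 11.4 CPM in MY16 and 18.5, 14.1 and 13.2 CPM in N2. For ergo-1 the gap was slight, with the highest MY16 library at 284.2 CPM and the lowest N2 library at 284.9 CPM. How many of all genes had libraries without overlap was not counted in this or any other comparison.

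The Star groups were then compared with the isolates they are named after, and the log2 fold changes of the 6 genes apart from alg-3 and alg-4 were above 0 in MY16_Star and below 0 in N2_Star. No gene passed with edgeR in either comparison, and none with DESeq2. Over all genes 0.0215% passed in MY16_Star against MY16 and 0.15% in N2_Star against N2. Unadjusted p was under 0.05 for 1 gene in the former, prg-1 at 0.0372, and for 2 in the latter, prg-1 at 0.00644 and hrde-1 at 0.0364. Over all genes 4.43% and 12.1% had an unadjusted edgeR p under 0.05 in these comparisons. Across the replicates of prg-1, MY16_Star stood at 503, 404 and 423 CPM and MY16 at 351, 380.3 and 364 CPM, so that the groups did not overlap. In the other isolate prg-1 stood at 257, 289.9 and 262 CPM in N2_Star and at 371, 334 and 358 CPM in N2, again without overlap and in the opposite order.

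The log2 fold changes of these 6 genes lay between 0.22 and 0.38 for MY16_Star over MY16 and between -0.40 and -0.16 for N2_Star over N2. These comparisons share no library. The signs of all 6 stayed the same in both comparisons under every alternative run, including the other scalings and the omission of any 1 library, although csr-1 came to -0.01 in N2_Star against N2 without N2_Star replicate 1. In that fit the log2 fold changes over N2 were -0.36 ± 0.128 for prg-1 (SE; edgeR adjusted p 0.238, unadjusted 0.016), -0.21 ± 0.127 for hrde-1 (adjusted p 0.517), -0.19 for wago-1, -0.13 for wago-4 and -0.11 for ergo-1, and of these only prg-1 had an unadjusted p under 0.05. Libraries of prg-1, wago-1 and ergo-1 did not overlap between MY16_Star and MY16, and those of prg-1, hrde-1, wago-1 and ergo-1 did not overlap between N2_Star and N2. For ergo-1 the gap between N2_Star and N2 was slight, at 281.2 CPM for the highest N2_Star and 284.9 CPM for the lowest N2 library. The share of all genes without overlap was not counted, so no background stands beside these genes. The difference between these Star effects was tested as an interaction, where 0% of all genes passed with edgeR. None of the 8 passed with edgeR or DESeq2, and 4 had an unadjusted p under 0.05, as had 13.1% of all genes. They were prg-1 with a log2 interaction of 0.68 ± 0.170 (SE, adjusted p 0.313), wago-1 with 0.72 ± 0.264 (adjusted p 0.333), hrde-1 with 0.63 ± 0.240 (adjusted p 0.343) and ergo-1 with 0.67 ± 0.267 (adjusted p 0.346). Without N2_Star replicate 1 the interaction was 0.64 for prg-1, 0.52 for wago-1, 0.45 for hrde-1 and 0.49 for ergo-1, with edgeR adjusted p of 0.168, 0.259, 0.260 and 0.304. Over the alternatives the adjusted p of the prg-1 interaction ran from 0.0513 to 0.540.

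The oocyte markers had the same signs with all libraries included. Their log2 fold changes were 0.21 to 0.52 in MY16_Star against MY16 and -0.46 to -0.23 in N2_Star against N2, with 0 of 8 past the threshold in either by edgeR, and 2 and 1 of 8 at an unadjusted p under 0.05. Of all genes, 4.43% and 12.1% had such an unadjusted p. The same signs held for all 8 germline markers (0.06 to 0.35 and -0.34 to -0.11, in that order of comparisons). They also held for all 10 genes of germ granules on a list described below (0.07 to 0.48 and -0.45 to -0.14). None of these passed with edgeR, and the share of all genes with such signs was not counted. Without N2_Star replicate 1 the oocyte markers stood at -0.33 (rme-2) to 0.0083 (oma-1) in N2_Star against N2. The part of oocyte or germline content in the differences of the Argonaute genes was not tested. In whole animals, fewer germ cells and less RNA per germ cell cannot be told apart.

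**Figure D2:**
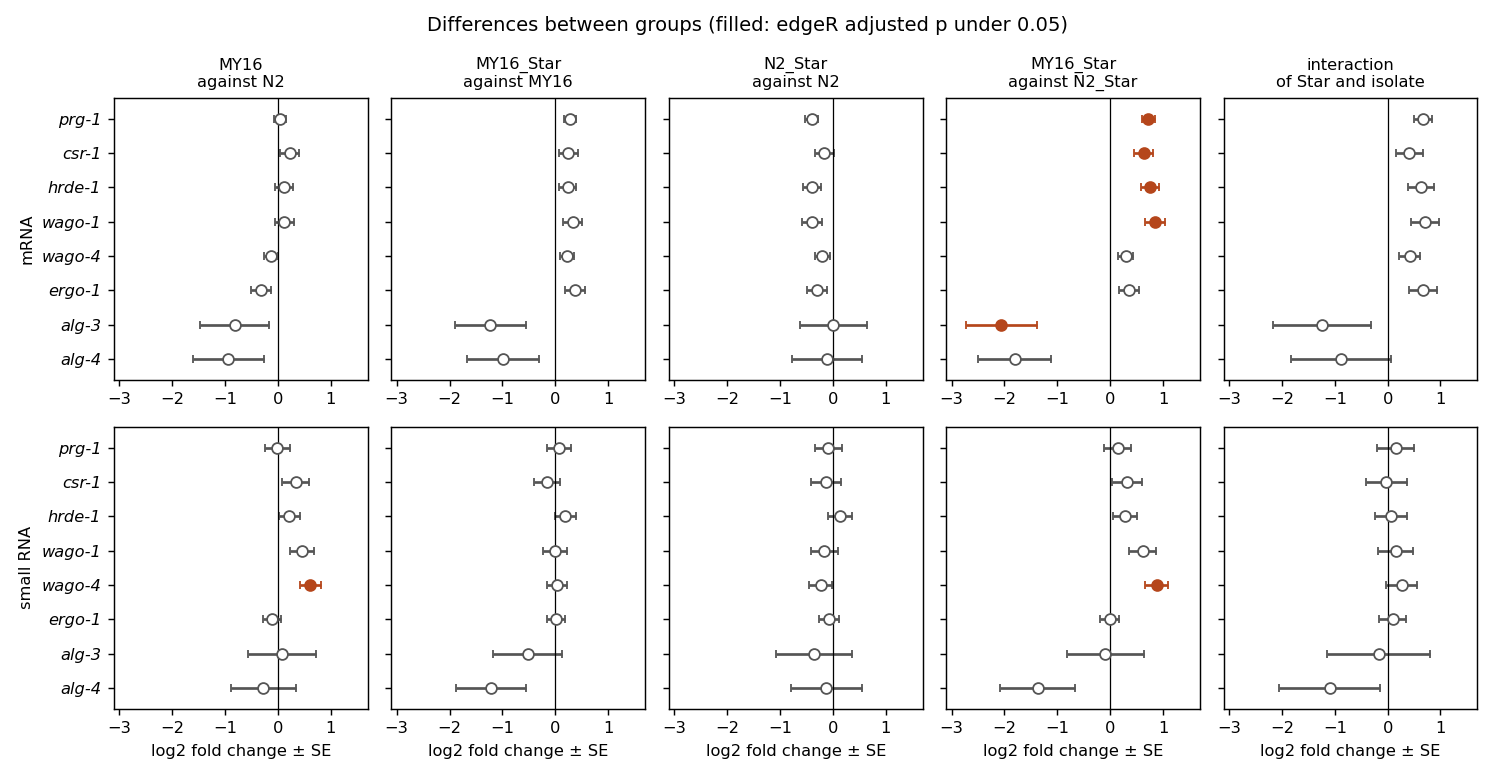
Log2 fold change ± SE (horizontal axis) of each gene in 5 contrasts, for mRNA in the upper row and small RNA in the lower row; filled points passed the edgeR test at an adjusted p under 0.05. In mRNA the filled points are prg-1, csr-1, hrde-1, wago-1 and alg-3 in MY16_Star against N2_Star, and in small RNA wago-4 in both comparisons of the isolates.

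Between the Star groups themselves, mRNA of prg-1, csr-1, hrde-1 and wago-1 was higher in MY16_Star than in N2_Star and mRNA of alg-3 was lower. These 5 of 8 genes passed with edgeR, where 22.5% of all genes did, 7.69% as higher and 14.8% as lower. DESeq2 passed the same 5 and alg-4, where 28.1% of all genes passed. The median log2 fold change was 0.50 over the 8 genes and -0.12 over all genes, and with library sizes taken from all reads the latter moved to -0.23 and the share of higher genes among all calls from 34.2% to 21.3%. The same 5 Argonaute genes passed with that scaling.

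Of the silencing Argonautes, wago-1 stood at 1391, 1155 and 1106 CPM in MY16_Star and 483, 798 and 755 CPM in N2_Star. The lowest MY16_Star library lay above the highest N2_Star library, and the log2 fold change came to 0.84 ± 0.188 (SE; adjusted p 0.0114 by edgeR). For hrde-1, the nuclear Argonaute of heritable silencing, MY16_Star stood at 869, 776 and 825 CPM and N2_Star at 354, 552 and 556 CPM, again without overlap, and its log2 fold change came to 0.76 ± 0.170 (edgeR adjusted p 0.0119). For wago-4, an Argonaute of germ granules that is needed to pass on RNA interference, MY16_Star stood at 196, 163 and 180.4 CPM and N2_Star at 133, 159 and 149.5 CPM. The wago-4 libraries did not overlap either, but the log2 fold change of 0.29 ± 0.138 did not pass (edgeR adjusted p 0.138, 95% interval 0.02 to 0.56).

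For prg-1, from the libraries given above, the log2 fold change of MY16_Star over N2_Star came to 0.72 ± 0.121 (SE; adjusted p 0.00252 by edgeR), and it passed under every alternative run, with adjusted p up to 0.0494. The gene csr-1, at 765, 587 and 622 CPM in MY16_Star and 328, 482 and 461 CPM in N2_Star, did not overlap between the groups and had a log2 fold change of 0.63 ± 0.181 (edgeR adjusted p 0.0292). The gene ergo-1 stood at 303, 333 and 313 CPM in MY16_Star and 177, 281 and 279 CPM in N2_Star, and its log2 fold change of 0.37 ± 0.189 did not pass (edgeR adjusted p 0.168). With N2_Star replicate 1 left out, prg-1, hrde-1 and wago-1 still passed as higher, csr-1 had an adjusted p of 0.0542, and alg-3 and alg-4 both passed as lower. In that fit 25.5% of all genes passed. Without MY16_Star replicate 1, csr-1 had an adjusted p of 0.0913. In a fit of these 2 groups alone, prg-1 passed and csr-1, hrde-1, wago-1 and alg-3 did not, with adjusted p of 0.0951, 0.0677, 0.0696 and 0.114.

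The marker sums of the same groups did not overlap. The summed oocyte markers were at 6606 to 9049 CPM in MY16_Star and 2976 to 5218 CPM in N2_Star, and the germline markers at 5234 to 6272 and 2633 to 4841 CPM. The 10 somatic markers summed to 1083 to 1726 CPM in MY16_Star and 1905 to 2128 CPM in N2_Star, in the other direction. Of these 10, 3 passed with edgeR as lower (unc-54, dpy-7 and sqt-3), beside 14.8% of all genes, and 1 as higher (ifb-2). With each library of these groups left out in turn, ifb-2 passed in all 6 fits and unc-54, dpy-7 and sqt-3 in 2 fits each. With edgeR, 6 of 8 oocyte markers rose, among them egg-1, rme-2, oma-2 and puf-5, and 4 of 8 germline markers, him-3, htp-3, rec-8 and mex-3, against 7.69% of all genes. These counts were 4 and 3 without N2_Star replicate 1, 3 and 1 without MY16_Star replicate 1, 4 and 2 without MY16_Star replicate 2, and 3 to 8 and 1 to 5 over all libraries left out in turn. Without these 3 libraries 25.5%, 8.88% and 9.01% of all genes passed in either direction, against 22.5% with all libraries. As a description chosen after the values were seen, each gene was also expressed as a percentage of the summed oocyte markers of the same library. On this scale wago-1 was at 16.4 ± 0.864% in MY16_Star and 16.3 ± 1.08% in N2_Star, with 16.8 ± 0.457% in MY16 and 16.7 ± 0.175% in N2. For hrde-1 the percentages were 11.2 ± 1.46 and 11.8 ± 1.13 in the Star groups, for csr-1 8.83 ± 0.519 and 10.3 ± 0.938, and for prg-1 5.97 ± 0.422 and 6.74 ± 1.65, in the order MY16_Star and N2_Star. Libraries of the Star groups overlapped on this scale for all 4 of these genes. For wago-4 the percentages were 2.43 ± 0.284 in MY16_Star and 3.65 ± 0.727 in N2_Star, and for ergo-1 4.33 ± 0.846 and 5.92 ± 0.527, so that on this scale both genes were lower in MY16_Star, without overlap between the groups (SD, n = 3 for each). The choice of markers mattered. As a percentage of the summed germline markers, wago-1 was at 21.6 ± 0.527 in MY16_Star and 17.3 ± 0.952 in N2_Star and hrde-1 at 14.7 ± 0.980 and 12.5 ± 1.03, higher in MY16_Star without overlap. On that scale csr-1 (11.7 ± 0.663 and 10.9 ± 1.33), prg-1 (7.88 ± 0.308 and 7.21 ± 2.19), wago-4 (3.20 ± 0.217 and 3.89 ± 0.988) and ergo-1 (5.67 ± 0.729 and 6.27 ± 0.447) overlapped. Without N2_Star replicate 1, csr-1 at 9.96 to 10.4% and prg-1 at 5.90 to 5.99% of the germline markers lay below MY16_Star at 10.9 to 12.2% and 7.52 to 8.08%, while wago-4 and ergo-1 still overlapped, and on the oocyte scale each of the 6 genes overlapped or stood apart as before.

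The Argonautes of sperm formation had low mRNA levels that varied widely between libraries of 1 group. Across libraries, alg-3 mRNA stood at 18.5, 14.1 and 13.2 CPM in N2, 4.73, 21.2 and 20.4 CPM in N2_Star, 3.81, 10.9 and 11.4 CPM in MY16 and 1.17, 2.47 and 7.51 CPM in MY16_Star. For alg-4 the values were 18.03, 17.9 and 13.6 CPM in N2, 4.23, 21.6 and 20.1 CPM in N2_Star, 2.73, 10.8 and 12.4 CPM in MY16 and 2.04, 2.53 and 8.54 CPM in MY16_Star. Both genes were low in the same libraries, and replicate 1 was the lowest library of N2_Star, MY16 and MY16_Star for both. Their SD of log2 CPM within groups was 0.926 and 0.979, at percentiles 97.8 and 98.2 of all genes tested, whose median was 0.297. That of prg-1 was 0.107, at percentile 2.58.

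Between MY16_Star and N2_Star the log2 fold change was -2.06 ± 0.674 for alg-3 (SE, edgeR adjusted p 0.0461) and -1.81 ± 0.689 for alg-4 (adjusted p 0.0739). The groups overlapped for both, since N2_Star replicate 1 lay below MY16_Star replicate 3. Without N2_Star replicate 1 both passed, with an adjusted p of 0.0198 for alg-4, and alg-4 also passed without MY16_Star replicate 3 (0.0226) and with the replicate block (0.0346). The call of alg-3 was lost without N2_Star replicate 2 (adjusted p 0.0927), N2_Star replicate 3 (0.112), MY16_Star replicate 1 (0.126) or MY16_Star replicate 2 (0.125). The intervals of both genes in the comparisons of MY16 with N2, MY16_Star with MY16 and N2_Star with N2 included 0.

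Sperm markers were also lowest in N2_Star replicate 1 and MY16 replicate 1 within their groups. The 12 sperm markers summed to 77.2 CPM in N2_Star replicate 1 against 140.3 CPM in the highest library of that group, and to 66.6 to 98.1 CPM in MY16, 63.7 to 84.1 CPM in MY16_Star and 128 to 139.6 CPM in N2. With edgeR 6 of the 12 fell in MY16_Star against N2_Star, where 14.8% of all genes fell, and none rose. Among them gsp-3, a phosphatase gene of sperm, had a log2 fold change of -2.07 ± 0.600 (adjusted p 0.0312). The count of fallen sperm markers was 0 without N2_Star replicate 3 or MY16_Star replicate 2, 1 without N2_Star replicate 2 or MY16_Star replicate 1, 6 without N2_Star replicate 1 and 7 without MY16_Star replicate 3. Of all genes 13.4%, 9.01%, 17.2%, 8.88%, 25.5% and 25.3% passed in either direction, in that order of libraries. The part of sperm content in the alg-3 and alg-4 values was not tested. As a share of the summed reads of the pair, alg-3 took 36.4% (95% Wilson interval 24.9 to 49.6) to 58.3% (49.1 to 66.9) in the 12 mRNA libraries. The interval held 50% in all but N2 replicate 2 and MY16_Star replicate 1. How the counting treated reads that match both genes is not given in the sources used here, so the split between them is uncertain.

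**Figure D3:**
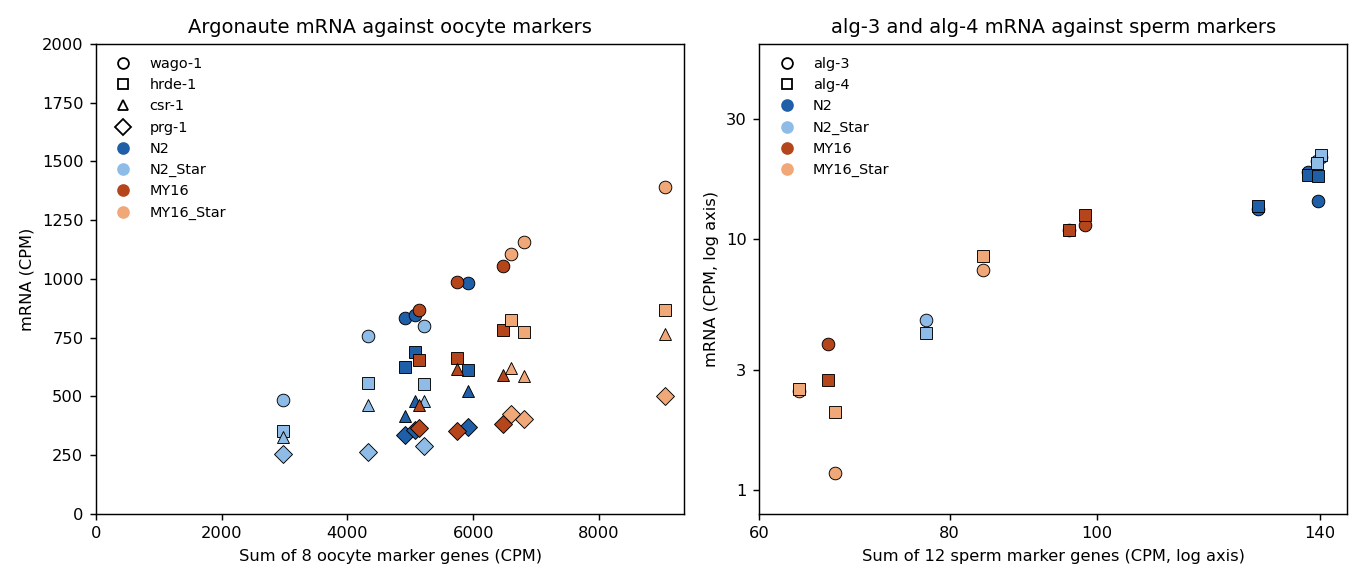
Left, mRNA of wago-1, hrde-1, csr-1 and prg-1 (vertical axis, CPM) against the summed CPM of 8 oocyte markers in the same mRNA library; right, alg-3 and alg-4 (vertical log axis, CPM) against the summed CPM of 12 sperm markers (log axis). Each symbol is 1 library, coloured by group: on the left, MY16_Star libraries lie at 6606 CPM of oocyte markers and above, and on the right the library of N2_Star with low alg-3 (4.73 CPM) lies at 77.2 CPM of sperm markers.

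The genes that work with each Argonaute were counted from lists chosen with earlier results of these data known. Their counts in MY16_Star against N2_Star mRNA stand beside 7.69% of all genes that rose and 14.8% that fell, to which 1 of 9 genes rising or 2 of 11 falling is near. In MY16_Star against N2_Star, 7 of 10 germ granule genes rose in mRNA and none fell, with a median log2 fold change of 0.57. Among them were deps-1 (0.72 ± 0.189, edgeR adjusted p 0.0221) and pgl-3 (0.58 ± 0.148, adjusted p 0.0193), which encode P granule proteins, lotr-1 (0.55 ± 0.137, adjusted p 0.0175), whose protein lies in germ granules, and pid-2 (0.60 ± 0.133, adjusted p 0.0110), a Z granule gene. That count was 3 of 10 without MY16_Star replicate 1 and 5 to 8 with any other library of these groups left out. Without MY16_Star replicate 1 the share of all genes passing in either direction also fell, from 22.5% to 8.88%. Of the 13 genes of the mutator complex and of secondary small RNA synthesis 3 rose and none fell: mut-14 (0.53 ± 0.129, adjusted p 0.0167) and rde-12 (0.52 ± 0.127, adjusted p 0.0172), which encode RNA helicases, and mut-7 (0.45 ± 0.124, adjusted p 0.0273), an exonuclease gene. Without N2_Star replicate 3 only 1 of them passed, where 13.4% of all genes passed in either direction.

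In the piRNA list 2 of 12 rose, namely parn-1 (log2 fold change 0.54 ± 0.146, adjusted p 0.0250), whose enzyme trims piRNA ends, and pid-3 (0.47 ± 0.150, adjusted p 0.0420), a gene of piRNA maturation. The piRNA count was 1 without N2_Star replicate 2, 0 without N2_Star replicate 3, MY16_Star replicate 1 or MY16_Star replicate 2, and 5 without MY16_Star replicate 3. Of all genes 17.2%, 13.4%, 8.88%, 9.01% and 25.3% passed in either direction, in that order of libraries. Among the 9 genes of Dicer and its ERI partners, which make the small RNAs of ERGO-1, ALG-3 and ALG-4, only rde-4 rose (0.36 ± 0.112, adjusted p 0.0381), a gene for a protein that binds double-stranded RNA, and of the fits with 1 library of these groups left out it passed only in that without MY16_Star replicate 3. None of 7 nuclear silencing genes and none of 3 CSR-1 pathway genes passed with edgeR, with 2 and 0 at an unadjusted p under 0.05, as had 39.8% of all genes.

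Of 11 other Argonaute genes tested in mRNA, alg-5, ppw-1 and sago-2 rose and sago-1 and wago-10 fell. Without MY16_Star replicate 1 or replicate 2, 1 rose and 1 fell, where 8.88% and 9.01% of all genes passed in either direction. The secondary Argonaute gene sago-2 went from 0.831 ± 0.261 CPM in N2_Star to 4.08 ± 0.781 CPM in MY16_Star (log2 fold change 2.29 ± 0.323, edgeR adjusted p 0.000759) and from 1.81 ± 0.420 CPM in N2 to 4.88 ± 0.472 CPM in MY16 (1.42 ± 0.307, adjusted p 0.0184). It was the only gene of the 7 pathway lists that passed between MY16 and N2 in mRNA, where 4.03% of all genes did. That call was lost without N2 replicate 1 (adjusted p 0.108), N2 replicate 2 (0.0971), MY16 replicate 1 (0.0717) or MY16 replicate 2 (0.0524). The gene sago-1 went from 67.4 ± 4.94 to 36.6 ± 3.52 CPM (-0.88 ± 0.160, adjusted p 0.00405) and wago-10 from 3.08 ± 1.30 to 0.620 ± 0.425 CPM (-2.31 ± 0.549, adjusted p 0.0148) from N2_Star to MY16_Star (SD, n = 3).

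Antisense small RNA was found at all 8 genes. In N2 it was at 575 ± 105 CPM for prg-1, 478 ± 71.8 for hrde-1, 445 ± 86.2 for wago-4, 373 ± 83.6 for csr-1, 131 ± 36.9 for wago-1, 64.1 ± 5.14 for ergo-1, 4.08 ± 2.98 for alg-4 and 3.996 ± 2.91 CPM for alg-3 (SD, n = 3). Per kilobase of gene span prg-1 came first in all 4 groups, at 189 ± 34.7 CPM per kilobase in N2. Next came hrde-1 and then wago-4 in N2 and N2_Star, and wago-4 and then hrde-1 in MY16 and MY16_Star, although the libraries of this pair overlapped in all groups but N2_Star. The libraries of prg-1 overlapped those of its neighbour in all groups but N2. The genes csr-1, wago-1 and ergo-1 followed in that order in every group.

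**Figure D4:**
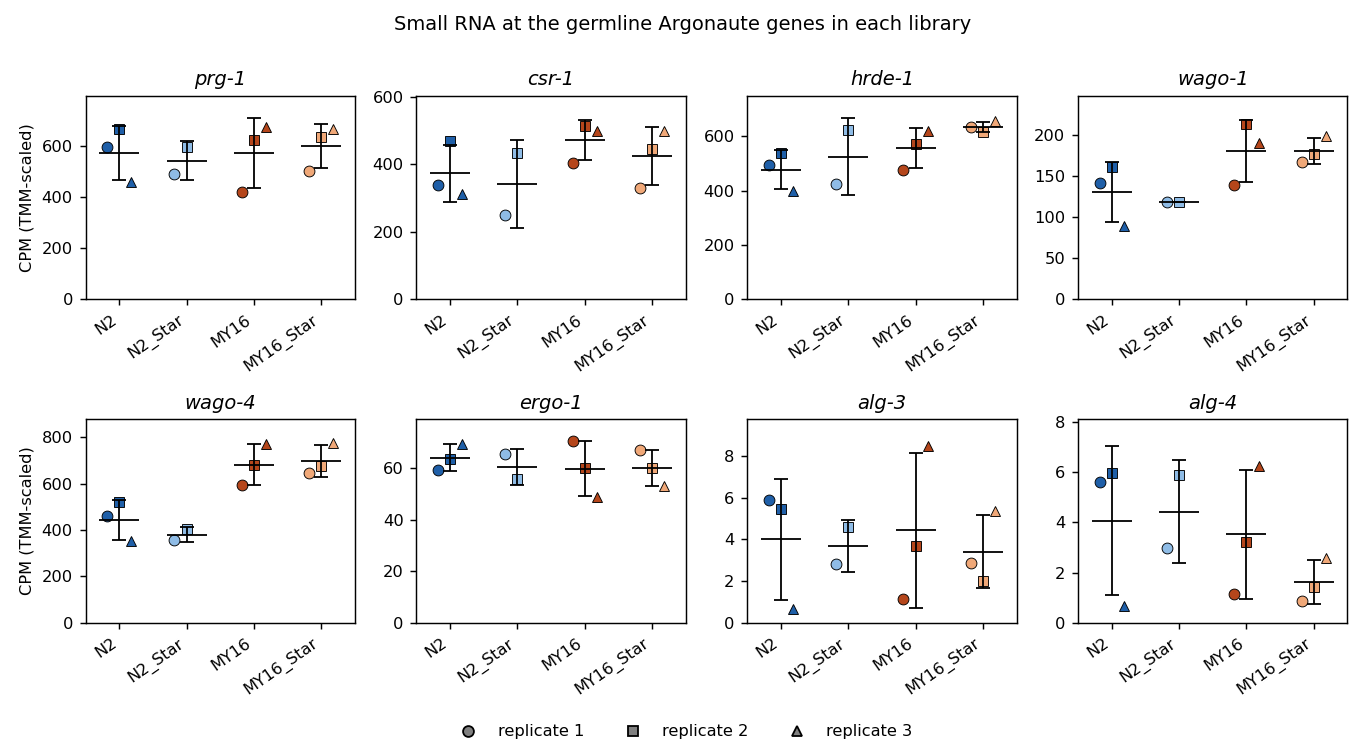
Antisense small RNA at each gene (vertical axis, CPM scaled by TMM, starting at 0) in the libraries of each group (2 for N2_Star, 3 for the others); symbols mark replicate numbers, long bars the mean and whiskers 1 SD. For wago-4 all MY16 and MY16_Star libraries lie at 594 CPM or above and all N2 and N2_Star libraries at 521 CPM or below.

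Small RNA at wago-4 was higher in MY16 worms than in N2 worms. The libraries stood at 594, 682 and 771 CPM in MY16 and 645, 676 and 776 CPM in MY16_Star, against 463, 521 and 351 CPM in N2 and 357 and 403 CPM in N2_Star. No library of either MY16 group was as low as any of the N2 groups. It was 1 of 8 genes that passed with edgeR between MY16 and N2, where 18.6% of all genes passed, at 0.62 ± 0.196 on the log2 scale (SE; adjusted p 0.0486). Between MY16_Star and N2_Star it was again the only one of 8, where 14.5% of all genes passed, with 0.88 ± 0.224 (adjusted p 0.0211). These shares of 1 in 8 are near those of all genes. DESeq2 passed wago-4 in both comparisons, where 20.1% and 17.4% of all genes passed. The interaction of 0.26 ± 0.293 did not pass (edgeR adjusted p 1).

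The calls of wago-4 depended on which libraries and which settings were used. Between MY16 and N2 the call was lost without N2 replicate 1 (adjusted p 0.128), N2 replicate 3 (0.112), MY16 replicate 2 (0.113) or MY16 replicate 3 (0.154), and without the 2 shallowest libraries (0.0513), with the wago-4 log2 fold change between 0.46 and 0.62 in these fits. It was also lost with the replicate block (0.0692), with no filter on low counts (0.181) and in the fit of these 2 groups alone (0.124). Between MY16_Star and N2_Star it was lost without either N2_Star library (adjusted p 0.165 and 0.0974), MY16_Star replicate 2 (0.0594) or MY16_Star replicate 3 (0.0642), with wago-4 between 0.775 and 0.92. With library sizes from all reads neither passed, at adjusted p of 0.253 and 0.0959. The mRNA of wago-4 did not pass in these comparisons, with log2 fold changes of -0.12 ± 0.138 and 0.29 ± 0.138. The small RNA at the 8 germline markers summed to 863 to 963 CPM in MY16 and 903 to 978 CPM in MY16_Star against 553 to 839.6 CPM in N2 and 589 to 837 CPM in N2_Star, also without overlap. The 8 oocyte markers summed to 842.2 to 1070 CPM in MY16 and 671.3 to 772.8 in N2, but the Star groups overlapped (798.7 to 1014 in MY16_Star, 653.5 to 841.6 in N2_Star). At the 10 somatic markers the sums went the other way. They were 21.4 to 27.5 CPM in MY16 and 24.71 to 30.08 in MY16_Star, against 33.22 to 320.7 in N2 and 333.1 to 419.3 in N2_Star. Only 5 of the 10 could be tested, and they differed in sign. Their log2 fold changes ran from -5.2 to 0.816 between MY16 and N2 and from -8.2 to 0.519 between the Star groups. With edgeR unc-54 passed as lower in both and myo-2 between the Star groups only, beside 10% and 8.69% of all genes, and none passed as higher. Of the 8 germline markers 1 passed between MY16 and N2 (mex-3) and 0 between the Star groups, with 3 and 4 at an unadjusted edgeR p under 0.05. Over all genes 29.7% and 28.8% had such an unadjusted p. The part of these markers in the wago-4 difference was not tested.

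The other 7 genes did not pass in small RNA. For wago-1, MY16_Star stood at 167, 176 and 199 CPM and N2_Star at 118 and 118 CPM, without overlap, with a log2 fold change of 0.61 ± 0.253 (edgeR adjusted p 0.135). It passed in the fit of these 2 groups alone (adjusted p 0.0485) and without the 2 shallowest libraries (0.0144). In these fits 16.9% and 23.4% of all genes passed. For prg-1 the isolates differed by a log2 fold change of -0.0047 with an approximate 95% interval from -0.46 to 0.45, and for ergo-1 by -0.10 with an interval from -0.43 to 0.23. At alg-4 all MY16_Star libraries lay below both N2_Star libraries, with a log2 fold change of -1.37 ± 0.713 that did not pass (edgeR adjusted p 0.230). In MY16_Star against MY16 and in N2_Star against N2, where 1.02% and 0.0245% of all genes passed, none of the 8 passed with edgeR or DESeq2 and none had an unadjusted p under 0.05. The interaction, in which 0.368% of all genes passed, gave the same counts of 0. Over all genes the unadjusted edgeR p was under 0.05 for 8.63%, 2.71% and 4.26% in that order of contrasts. In N2 replicate 3 and MY16 replicate 1, alg-3 and alg-4 had 1 and 2 counts each, which is under the floor, so differences of these genes in small RNA are uncertain. The part of depth in these low counts was not tested.

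Small RNA and mRNA of a gene were set against each other as a ratio of their CPM, which has no fixed unit because CPM are relative to the total of each assay. In N2 the ratio was 2.65 for wago-4, 1.62 for prg-1, 0.786 for csr-1, 0.744 for hrde-1, 0.212 for ergo-1 and 0.147 for wago-1. Among 9864 genes tested in both assays wago-4 lay at percentile 80.7 of this ratio and wago-1, the gene with the most mRNA of the 8, at percentile 12.3. In all 4 groups wago-1 stayed between 0.147 and 0.186 and ergo-1 between 0.19 and 0.246. For wago-4 the ratio was 2.65 in N2 and 2.59 in N2_Star (2.46 without N2_Star mRNA replicate 1) but 4.42 in MY16 and 3.89 in MY16_Star. Taking the lowest and highest libraries of both assays, it could lie between 1.87 and 3.36 in N2 and between 3.31 and 5.46 in MY16, which overlap, and between 2.25 and 3.04 in N2_Star and 3.29 and 4.77 in MY16_Star, which do not.

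**Figure D5:**
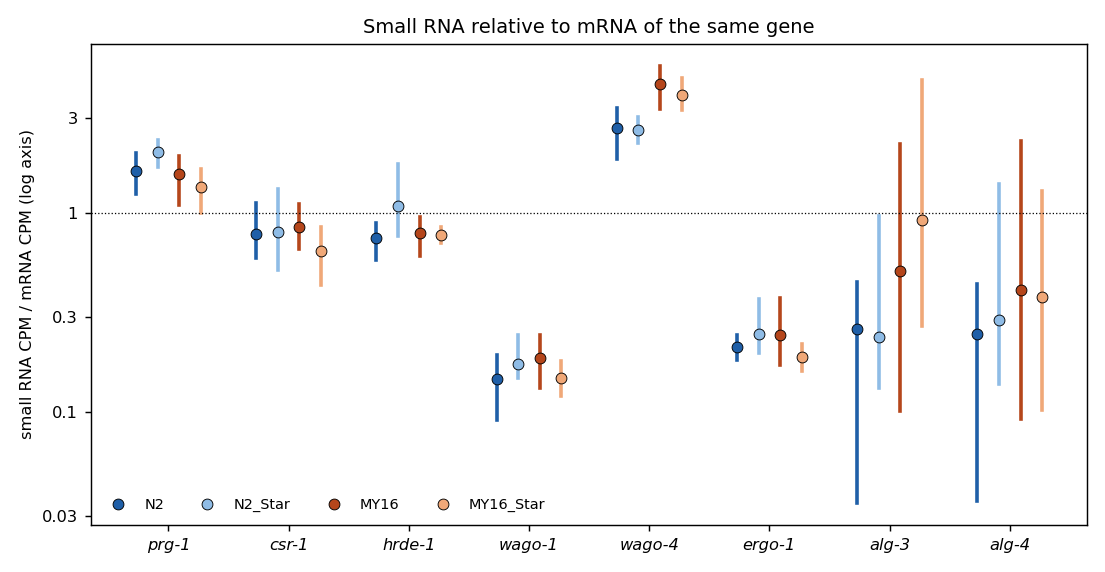
Ratio of small RNA CPM to mRNA CPM (vertical log axis) for each gene and group; points are ratios of group means and lines run from the lowest small RNA library over the highest mRNA library to the highest over the lowest. The ratio of wago-1 stays near 0.147 to 0.186 in all groups, that of wago-4 is 2.59 or above, and the lines of alg-3 and alg-4 are the longest.

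Small RNA also differed at genes of the pathway lists, whose counts stand beside 18.6% of all genes called between MY16 and N2 and 14.5% between the Star groups. Between MY16 and N2, small RNA fell at nrde-2, a nuclear silencing gene, from 525 ± 73.9 to 165 ± 36.0 CPM (log2 fold change -1.67 ± 0.215, edgeR adjusted p 0.000170), and at smut-1, a helicase gene (-0.64 ± 0.135, adjusted p 0.00539). It rose at eri-3, a gene of the ERI complex, from 91.8 ± 9.42 to 178 ± 31.7 CPM (0.96 ± 0.186, adjusted p 0.00322), at nrde-1, another gene of nuclear silencing (1.45 ± 0.461, adjusted p 0.0477), and at nrde-3, a nuclear Argonaute of somatic cells (0.73 ± 0.223, adjusted p 0.0419). The libraries of nrde-1 ran from 142.9 to 569.5 CPM in MY16 (293 ± 239.8) and from 87.4 to 133.7 CPM in N2 (107 ± 24.0). With each of these 6 libraries left out in turn, nrde-2, smut-1 and eri-3 passed every time, whereas nrde-1 passed in 2 fits and nrde-3 in 1. The nrde-1 log2 fold change was 0.53 (adjusted p 0.218) without MY16 replicate 1, and its call was also lost without N2 replicate 1, 2 or 3. Between MY16_Star and N2_Star nrde-2 and smut-1 again fell and eri-3 and nrde-3 again rose, and mut-15, deps-1, alg-1 and sago-2 also rose. Of these 8, nrde-2 and eri-3 passed in all 5 fits with 1 library left out, sago-2 in 4 and nrde-3 in 1, and smut-1, mut-15, deps-1 and alg-1 in none. Between MY16 and N2 these were 2 of 7 nuclear silencing genes, 1 of 13 mutator genes, 1 of 9 ERI genes and 1 of 12 other Argonaute genes, and between the Star groups 1, 2, 1 and 3 of them in that order and 1 of 10 germ granule genes. No piRNA or CSR-1 pathway gene passed with edgeR in either, with 2 piRNA genes and no CSR-1 pathway gene at an unadjusted p under 0.05 in each. Over all genes 29.7% between MY16 and N2 and 28.8% between the Star groups had such an unadjusted p. The mRNA of nrde-2 and eri-3 did not pass in either comparison.

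The genes most like each Argonaute over the 12 mRNA libraries were found by Pearson correlation of log2(CPM + 0.5), given as a description, since the libraries share their groups. For wago-1 they were pup-2 (r = 0.991), R04D3.3 (0.990) and oma-2 (0.985), the last a gene of oocyte maturation and one of the oocyte markers. For csr-1 they were let-92 (0.992), gfat-2 (0.977) and lmn-1 (0.976), for hrde-1 F14D7.2 (0.974), mig-22 (0.971) and rskn-1 (0.967), and for prg-1 T07C4.3 (0.976), try-1 (0.967) and haf-6 (0.965). For ergo-1 they were ani-1 (0.990), cnk-1 (0.979) and fubl-2 (0.967), and for wago-4 Y45G5AM.9 (0.936), sumv-2 (0.930) and Y45G5AL.1 (0.929). For alg-3 they were F49C12.15 (0.994), F08B4.8 (0.993) and B0218.7 (0.990), and for alg-4 Y106G6G.4 (0.991), Y57G11A.2 (0.991) and W03D8.9 (0.989), while alg-3 and alg-4 reached 0.978 with each other. Within the 8 genes wago-1 was the nearest to prg-1 (0.909), csr-1 (0.949), hrde-1 (0.953) and wago-4 (0.764). Over the 11 small RNA libraries the nearest genes to prg-1 were F26F4.5 (0.976), evl-18 (0.972) and usp-46 (0.970), and those to csr-1 were rpb-2 (0.971), Y106G6H.6 (0.956) and ska-1 (0.942). For hrde-1 they were lotr-1 (0.972), klc-1 (0.971) and ima-3 (0.969), lotr-1 being one of the germ granule genes. For wago-1 they were tebp-2 (0.974), smr-1 (0.972) and mys-1 (0.972), and for wago-4 C30G12.6 (0.978), clh-3 (0.977) and Y39G10AR.32 (0.974), and wago-1 and wago-4 reached 0.920 with each other. For ergo-1 they were slx-1 (0.961), Y92H12A.5 (0.950) and F54D5.7 (0.939). For alg-3 they were F58D5.7 (0.966), T05F1.8 (0.963) and Y54G11A.17 (0.960), and for alg-4 Y75B8A.10 (0.978), W01B6.5 (0.971) and Y57G11A.2 (0.971).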

How the data were processed

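The authors deposited raw counts, 1 table for mRNA and 1 for small RNA. The submitters' processing notes name cutadapt, FastQC, Bowtie2, HTSeq and DESeq2 as tools and ce11 as the genome build. Versions, the annotation release and the strand setting are not given in the sources used here, and the reading of the small RNA table as antisense was not tested. Low mapping quality set reads aside in mRNA (620498 to 2110698 per library) but in no small RNA library, so repeated sequence is treated differently in the assays. Lines that name no gene took 7.84% to 17.7% of mRNA and 38.7% to 46.6% of small RNA counts and were left out.

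All 4 groups of an assay entered 1 model in edgeR 4.0.16 (R 4.3.3, limma 3.58.1). Libraries were scaled by TMM, genes filtered by filterByExpr (13983 and 12241 stayed), and contrasts tested with glmQLFit and glmQLFTest, with Benjamini-Hochberg adjustment over all genes of a contrast and a threshold of 0.05. Every adjusted p is from edgeR unless another tool is named. The SE is the size of the log2 fold change divided by the square root of F, and intervals of fold changes are 1.96 SE to each side. These intervals are approximate and too narrow for so few libraries, so an interval can leave out 0 where the unadjusted edgeR p is above 0.05. CPM are TMM-scaled. DESeq2 1.42.0 was an alternative. Of the 46904 IDs 44017 matched a RefSeq symbol of WBcel235. Levels were divided by gene span, since exon lengths were not used. The code was tested on simulated counts, with changes given to 200 genes drawn from all tested genes. Changes of 1 on the log2 scale passed with edgeR for 23.2% to 37.5% of them in mRNA and 16.5% to 19.1% in small RNA. A gene that did not pass may therefore still differ.

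The genes, lists and tests were chosen with earlier results of these data known. From each list, genes past the threshold were named, at most 4 per assay and contrast with the smallest p; alg-5 goes beyond that and was named after its value was seen. For likeness, the 3 nearest genes per Argonaute and assay were named. The alternatives were RLE size factors, DESeq2, no filter, fits of 2 groups, the replicate number as a block, library sizes from all reads and each library left out. N2_Star levels without replicate 1 were added after seeing the data.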

Additional observations from a re-analysis of the deposited data

How the results depend on the processing

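In mRNA of MY16_Star against N2_Star, 5 of the 8 genes passed; 1 passed with only these 2 groups in the fit, 6 with the replicate block and 3 to 6 as single libraries were left out, with 3 without MY16_Star replicate 1. In small RNA of MY16 against N2, 1 passed, and 0 passed with no filter on low counts, with only these 2 groups, with the replicate block, with all reads as library size and without the 2 shallowest libraries (added after seeing the data); leaving out single libraries gave 0 to 1. In small RNA of MY16_Star against N2_Star, 1 passed, 2 with only these groups or without the shallowest libraries, and 0 with all reads as library size; leaving out single libraries gave 0 to 1. In the other 7 comparisons 0 of 8 passed under each alternative. Of 1056 recomputed log2 fold changes 0 reversed a call, 24 lost and 7 gained one, and 71 changed sign without a call on either side. The cause was not tested; fits of 2 groups also hold fewer libraries. Over all genes in mRNA of MY16_Star against N2_Star 3144 passed, 792 in the fit of 2 groups, and 1281, 1298 and 1905 without MY16_Star replicate 1, MY16_Star replicate 2 and N2_Star replicate 3. The share of all genes passing was 22.5% in the main fit, 28.1% with DESeq2, 28.8% with the replicate block and 6.01% with only 2 groups. It was 8.88% to 25.5% as single libraries were left out. Deviations of same-numbered libraries correlated at -0.188 to 0.591 in mRNA and -0.261 to 0.391 in small RNA, over 0.1 in 14 of 18 and 5 of 15 pairs, and 8 of 12 and 6 of 11 libraries were nearest to their own number. Since not every pair was over 0.1 and no label ties a number to a shared batch, the block is an alternative. Of 128 recomputed levels per kilobase 39 moved by more than 1 SD, all but 1 with all reads as library size. Levels per coding length and an interaction fit with fewer groups were not run. Low counts limit alg-3 and alg-4 in small RNA most.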
